A study of Mus musculus with 4 samples.

Results

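The small leucine-rich proteoglycans (SLRPs) are secreted proteins of the extracellular matrix. The 10 SLRP genes Dcn, Bgn, Lum, Fmod, Prelp, Ogn, Epyc, Aspn, Omd and Kera were taken by gene symbol from the deposited count tables, in which all 10 were found among 54532 genes, 22046 of them protein-coding. The 4 libraries came from primary microglia of CD1 mice kept in serum-free medium, which received either 1 µM epigallocatechin gallate (EGCG, a flavan-3-ol of green tea) or the DMSO vehicle for 24 h, with 2 biological replicates of each (Vehicle 1 and 2, EGCG 1 and 2). The study prepared the cells for RNA from mixed cortical glia of mouse pups, by taking off the astrocyte layer with trypsin, so other cell types of the cortex and its coverings could be carried over. The labels do not say whether the replicates were separate litters or cultures, so P values measure the spread between these samples only.

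SLRPs consist of a core protein built around leucine-rich repeats, most of which carry chondroitin, dermatan or keratan sulfate chains. They bind collagen fibrils and regulate how these assemble, they hold growth factors such as TGFβ in the matrix, and soluble forms, biglycan in particular, can act as danger signals through Toll-like receptors of macrophages. In the brain their transcripts are known chiefly from fibroblasts of the meninges and vessels, not from microglia. Decorin (Dcn), biglycan (Bgn) and asporin (Aspn) form class I, lumican (Lum), fibromodulin (Fmod), Prelp, keratocan (Kera) and osteomodulin (Omd) form class II, and epiphycan (Epyc) and osteoglycin (Ogn) belong to class III.

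Most of these genes lie in clusters of the mouse genome (GRCm38). Dcn, Lum, Kera and Epyc occupied 202.8 kb of chromosome 10, from position 97479609 to 97682454. Aspn, Omd and Ogn lay within 80.1 kb of chromosome 13 (49544443 to 49624501), and Prelp and Fmod within 138.0 kb of chromosome 1 (133910304 to 134048277). Bgn stood alone on the X chromosome (73483602 to 73495933). The chromosome 13 cluster is spanned on the opposite strand by Cenpp, a centromere protein gene, which had 14, 12, 12 and 30 counts in Vehicle 1, EGCG 1, Vehicle 2 and EGCG 2. The libraries were strand-specific, but how the counting used the strand is not given in the sources used here.

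The sequences before the start sites of Bgn, Prelp and Epyc are shown because their transcripts were spread differently over the libraries: Bgn had the highest mean level per length of the 10 genes, Prelp was highest in EGCG 2, and Epyc was counted in Vehicle 1 alone. Each is the 250 bases upstream of a RefSeq start site in GRCm38.p6, 5′ to 3′ on the strand of the gene, with matches to any of the motifs searched in capitals.
Bgn, chrX:73483351-73483600, plus strand: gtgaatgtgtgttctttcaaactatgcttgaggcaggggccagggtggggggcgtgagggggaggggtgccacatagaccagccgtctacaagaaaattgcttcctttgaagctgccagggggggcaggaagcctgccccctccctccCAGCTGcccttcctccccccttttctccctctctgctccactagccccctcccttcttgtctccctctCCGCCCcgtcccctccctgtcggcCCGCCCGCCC
Prelp, chr1:133921402-133921651, minus strand: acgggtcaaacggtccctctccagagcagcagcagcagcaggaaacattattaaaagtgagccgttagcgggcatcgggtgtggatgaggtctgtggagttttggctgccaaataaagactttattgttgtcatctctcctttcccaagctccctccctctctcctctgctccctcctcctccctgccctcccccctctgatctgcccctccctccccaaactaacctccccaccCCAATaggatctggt
Epyc, chr10:97643818-97644067, plus strand: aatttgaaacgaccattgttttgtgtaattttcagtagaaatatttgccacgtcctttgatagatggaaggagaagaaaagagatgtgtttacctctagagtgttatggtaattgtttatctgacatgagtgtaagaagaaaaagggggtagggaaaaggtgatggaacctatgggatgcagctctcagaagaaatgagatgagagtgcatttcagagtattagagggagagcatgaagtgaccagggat
The motifs were searched on both strands of the 300-base window that also holds 50 bases after the start site. The Bgn window held 3 GC boxes (GGGCGG), at −34, −10 and −6 from the start site, the last pair overlapping in part, and an E-box (CAGCTG) at −102. GC boxes were found in 35.9% and this E-box in 16.4% of 32544 RefSeq promoter windows of the same length. The Prelp window held a CCAAT box at −15, a motif present in 37.4% of windows, and the Epyc window held none of the 5 motifs. CpG dinucleotides numbered 9 for Bgn, 7 for Prelp and 2 for Epyc, against a median of 7 over all windows. Of the 8 SLRP genes with a window, 4 held a CCAAT box, 2 a TATA box (TATAAA, in 13.6% of all windows), 2 the E-box, 1 a GC box and 0 an AP-1 site (TGANTCA, in 7.79%). Dcn and Lum were not in the promoter table.

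EGCG 1 stood apart from the other libraries in SLRP transcripts. The 10 genes together had 2593 counts in Vehicle 1, 7 in EGCG 1, 1375 in Vehicle 2 and 1949 in EGCG 2. Relative to depth, this was 79.0 CPM (each count relative to the size of its library, scaled with TMM factors) in Vehicle 1, 0.218 in EGCG 1, 37.5 in Vehicle 2 and 35.3 in EGCG 2. Depth did not follow this order, since the total counts were 33805071, 34300679, 36307930 and 54970300 in the same order, and EGCG 2 was 1.51 times as deep as its vehicle. Counts of 3 or fewer were taken as the detection limit of a library, and above it were 7 SLRP genes in Vehicle 1, 1 in EGCG 1, 5 in Vehicle 2 and 5 in EGCG 2.

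**Figure D1:**
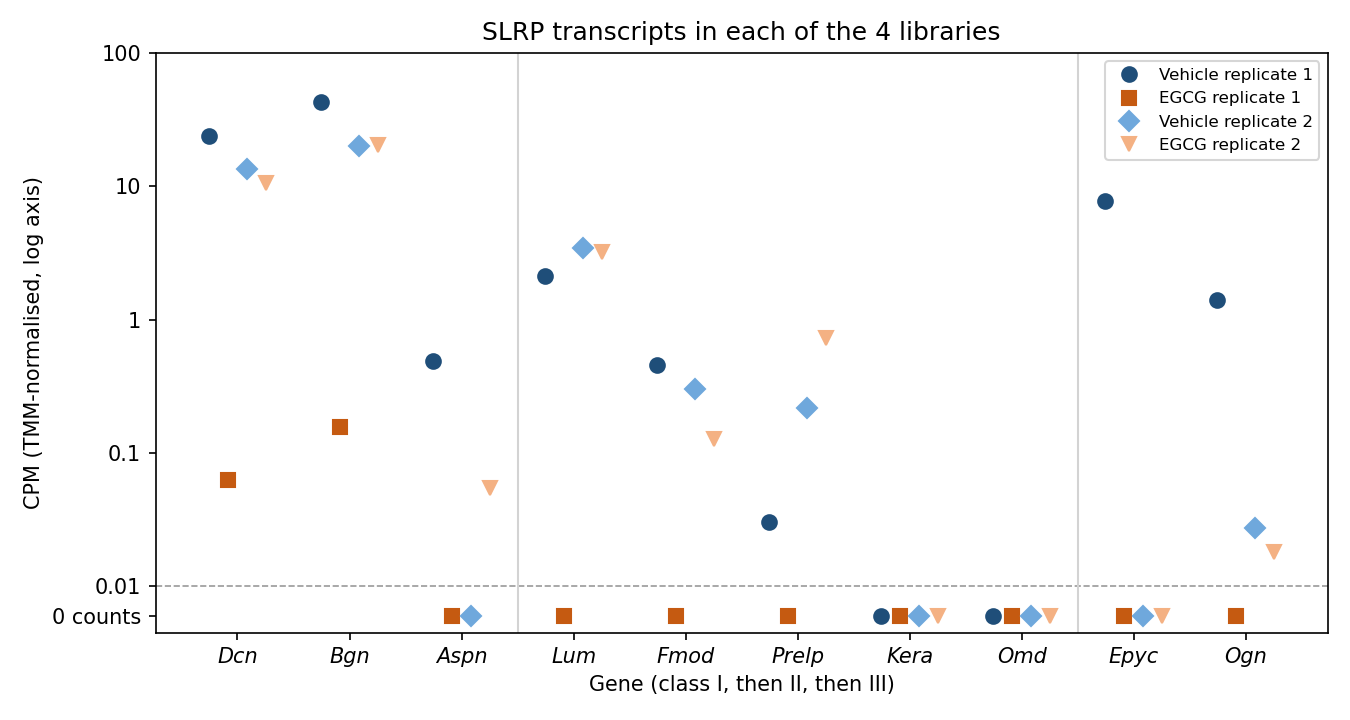
TMM-normalised CPM (log axis) of the 10 SLRP genes, ordered by class, with 1 point for each of the 4 libraries. Points under the dashed line are at 0 counts and are not to scale. Dcn, Bgn and Lum were at 2.13 CPM or more in the other 3 libraries, whereas in EGCG 1 Bgn reached 0.156 CPM, Dcn 0.0624 CPM and the other 8 genes 0 counts.

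Biglycan and decorin, the class I members that bind type I collagen and TGFβ, supplied most of the SLRP counts. Bgn had 1401 counts in Vehicle 1, 5 in EGCG 1, 736 in Vehicle 2 and 1133 in EGCG 2, or 42.7, 0.156, 20.1 and 20.5 CPM. Its vehicle mean was 31.4 ± 16.0 CPM and its EGCG mean 10.3 ± 14.4 CPM (SD, n = 2 each), and the groups overlapped because EGCG 2 lay above Vehicle 2. Dcn had 788, 2, 493 and 589 counts in the same order, or 24.0, 0.0624, 13.4 and 10.7 CPM. For Dcn both EGCG libraries lay below both vehicle libraries, with means of 18.7 ± 7.47 CPM in vehicle and 5.37 ± 7.50 CPM in EGCG (SD, n = 2 each). The remaining class I gene, Aspn, whose product also binds collagen and TGFβ, had 16 counts in Vehicle 1, 0 in EGCG 1, 0 in Vehicle 2 and 3 in EGCG 2, so it was above the detection limit in Vehicle 1 alone.

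Lumican, a class II keratan sulfate proteoglycan that spaces collagen fibrils, was present in both libraries of replicate 2 and in Vehicle 1. Lum had 70 counts in Vehicle 1, 0 in EGCG 1, 126 in Vehicle 2 and 176 in EGCG 2, or 2.13, 0, 3.44 and 3.19 CPM, and EGCG 2 lay between both vehicle libraries. Fmod, another collagen-binding class II gene, had 15, 0, 11 and 7 counts in the same order, and both its EGCG libraries lay below both vehicle libraries at 0.457, 0, 0.300 and 0.127 CPM. Prelp, which encodes a basic class II protein that binds heparin and collagen, had 1, 0, 8 and 40 counts, with its highest level, 0.725 CPM, in EGCG 2. Its groups overlapped, with 0.124 ± 0.133 CPM in vehicle and 0.363 ± 0.513 CPM in EGCG (SD, n = 2 each). Kera, known from the cornea, and Omd, known from bone, had 0 counts in every library, which allows levels of up to 0.0544 CPM in EGCG 2, the deepest library, and up to 0.0936 CPM in EGCG 1.

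The class III genes were above the detection limit in Vehicle 1 alone. Epyc, a cartilage proteoglycan gene, had 256 counts (7.80 CPM) in Vehicle 1 and 0 in the other 3 libraries. Ogn, known from bone and connective tissue, had 46 counts in Vehicle 1, 0 in EGCG 1, 1 in Vehicle 2 and 1 in EGCG 2. Epyc and Ogn thus separated Vehicle 1 from Vehicle 2, which had the same treatment, as much as from EGCG 1.

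Per kilobase of gene length, the mean levels over the 4 libraries ran in the order Bgn (3.42 CPM per kb), Dcn (2.06), Lum (0.895), Epyc (0.762), Ogn (0.141), Prelp (0.0673), Fmod (0.0669) and Aspn (0.0576). This order was not the same in every library. Epyc came after Bgn and Dcn in Vehicle 1 at 3.05 CPM per kb, above Lum at 0.871 CPM per kb, but was not detected in replicate 2, where Lum took that place at 1.40 CPM per kb in Vehicle 2 and 1.30 in EGCG 2. With a range over libraries that exceeded the gaps between them, neighbours in the order of means could not be separated, although Bgn lay above Dcn in each of the 4 libraries, in EGCG 1 on 5 against 2 counts.

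The make-up of the SLRP counts was described by the share of each gene. Bgn made up 54.0% of them in Vehicle 1 (95% exact interval 52.1 to 56.0%), 53.5% in Vehicle 2 (50.8 to 56.2%) and 58.1% in EGCG 2 (55.9 to 60.3%). Dcn made up 30.4%, 35.9% and 30.2% in these libraries, so the pair supplied most counts in each. Lum made up 2.70% in Vehicle 1 (2.11 to 3.40%) against 9.16% in Vehicle 2 and 9.03% in EGCG 2. Epyc made up 9.87% in Vehicle 1, whereas its 0 counts of 1375 in Vehicle 2 allow up to 0.268% by the same exact interval. The ratio of Bgn to Dcn counts was 1.78 (1.63 to 1.94) in Vehicle 1, 1.49 (1.33 to 1.68) in Vehicle 2, 1.92 (1.74 to 2.13) in EGCG 2 and 2.50 (0.409 to 26.3) in EGCG 1, where it rests on 7 counts. All these intervals cover counting error only.

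**Figure D2:**
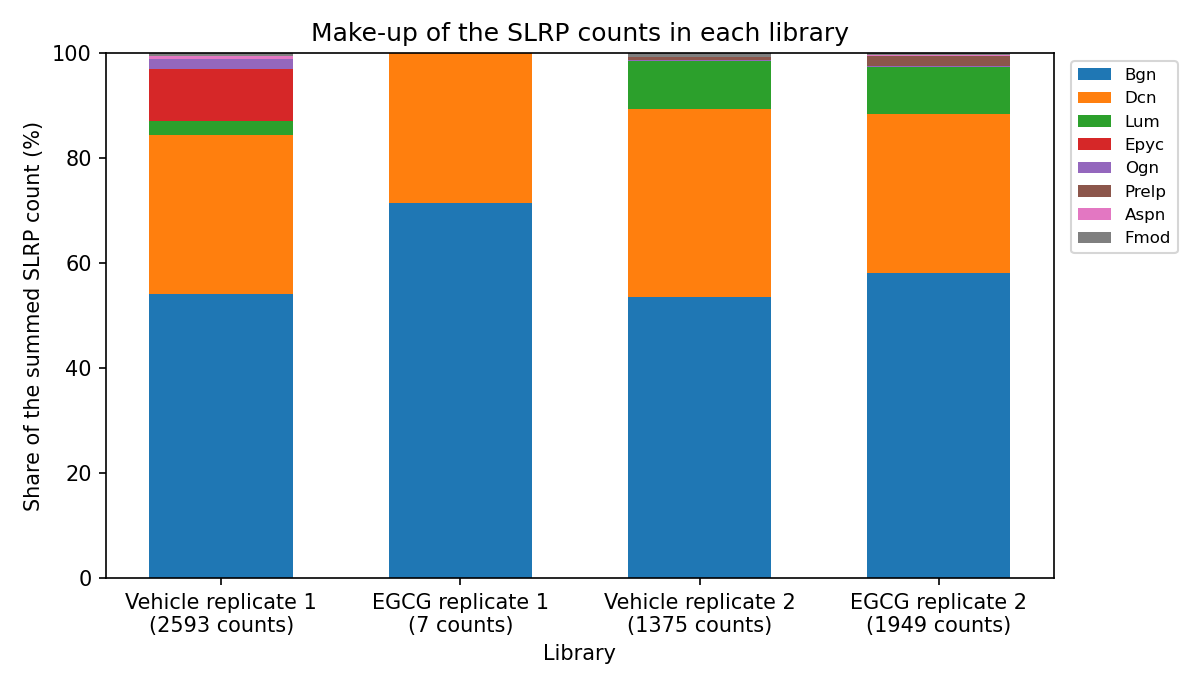
Share of the summed SLRP count (%) taken by each gene in the 4 libraries, with the summed count under each bar. The bar of EGCG 1 rests on 7 counts. Bgn and Dcn fill most of every bar, Epyc (9.87%) appears in Vehicle 1 alone, and the Lum share is 2.70% in Vehicle 1 but 9.16% and 9.03% in replicate 2.

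The comparison of EGCG with vehicle asked whether the treatment altered transcript levels in microglia. In the edgeR quasi-likelihood fit of all 4 libraries, 8 SLRP genes passed the filter of at least 10 summed counts, Omd and Kera did not, and 0 of the 8 passed either threshold used by the study. Over the 13811 genes tested, 0.116% (16 genes) had an unadjusted P under 0.05 and 0% an adjusted P under 0.1. Treatment was the only term of this fit, so differences between replicates entered its spread. Its few calls therefore do not show that levels were alike. The log2 fold change of EGCG over vehicle was −1.79 for Dcn (SE 1.83), −1.59 for Bgn (SE 1.84) and −0.79 for Lum (SE 1.94). It was −2.38 for Fmod (SE 1.37) and 1.54 for Prelp (SE 2.01). The adjusted P of the edgeR test was 1.00 for each of the 8 genes. Epyc was at 0 in both EGCG libraries and in Vehicle 2, and Ogn and Aspn were not above 3 counts in any of these 3 libraries, so no fitted fold is given for the 3 genes. With DESeq2, the tool of the study, Ogn and Epyc were among 24 of 13811 genes under the unadjusted threshold, both with an adjusted P of 1.00. The 8 genes had 7 negative fitted values and 1 positive, with a median of −2.09 (the same with Epyc at its bound) against 0.01 over all genes tested, though Epyc, Ogn and Aspn entered through Vehicle 1 alone. For Dcn and Fmod the EGCG libraries lay wholly below the vehicle libraries, an order found in 5.51% of all genes. Ogn had it too, but on 1 count each in Vehicle 2 and EGCG 2, so its order there reflects library size alone. With 2 samples against 2 an exact permutation test of a single gene cannot go below P = 0.333.

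The SLRP calls depended on which library was left out, and so did the genes that could be tested. Epyc, Ogn and Aspn passed the filter on low counts only through Vehicle 1. Without Vehicle 1 these genes were not tested, which left 5 SLRP genes in that fit. Their values in the other fits rest on Vehicle 1. Prelp was not tested without EGCG 2. Without EGCG 2, the edgeR fit gave unadjusted P values under 0.05 for 4 SLRP genes, all lower with EGCG, where 0.95% of genes were called lower. These were Dcn, with a log2 fold change of −8.18, Bgn, with −7.65, and Lum and Fmod, which were set against an EGCG library at 0 counts. Without EGCG 1, 0 SLRP genes passed, and the log2 fold changes were −0.81 for Dcn, −0.61 for Bgn and 0.19 for Lum. Without Vehicle 2, Epyc and Ogn passed the unadjusted threshold, where 0.388% of genes were called lower, and without Vehicle 1 none did. The lone library of a group was assumed to vary as the other group did, and the adjusted P in edgeR stayed at 1.00 for the SLRP genes in each of these fits.

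**Figure D3:**
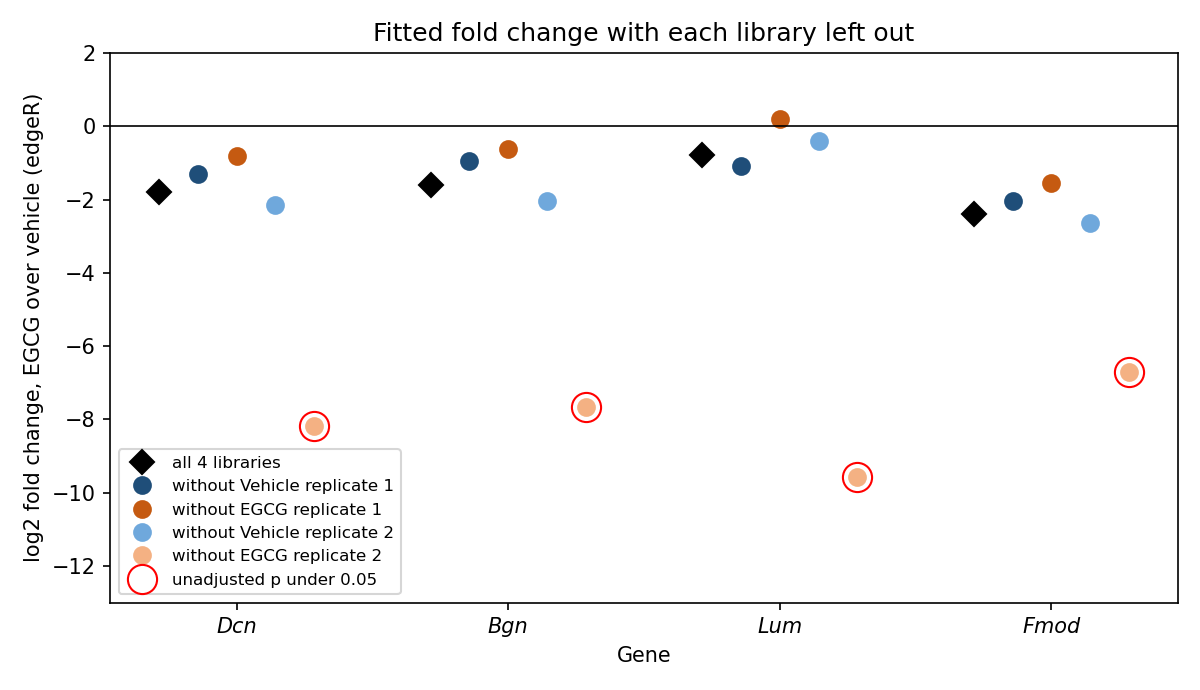
Fitted log2 fold change of EGCG over vehicle (edgeR) for Dcn, Bgn, Lum and Fmod, with all 4 libraries (diamonds) and with each library left out (circles). A red ring marks an unadjusted P under 0.05. The ringed values, all without EGCG 2, lie far below the others, and those of Lum and Fmod are set against a library at 0 counts and so depend on the prior count of the fit.

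Within replicate 1 the SLRP genes were lower with EGCG, and within replicate 2 most differed little. On the log2 CPM scale with a prior count of 2, the EGCG minus vehicle difference in replicate 1 was −7.73 for Dcn, −7.69 for Bgn, −7.26 for Epyc, −5.42 for Lum, −4.83 for Ogn, −3.40 for Aspn, −3.32 for Fmod and −0.68 for Prelp. In replicate 1, 7 of 8 SLRP genes were lower by more than 1, against 5.45% of all genes tested. Epyc, Ogn and Aspn passed the filter on low counts only through Vehicle 1, so their direction in replicate 1 was fixed by that filter. As linear ratios, Vehicle 1 exceeded EGCG 1 by 385-fold for Dcn (95% counting interval 106 to 3183) and 274-fold for Bgn (117 to 844). Against a limit of 3 counts, Vehicle 1 was at least 83.3-fold higher for Epyc, 22.8-fold for Lum, 15.0-fold for Ogn, 5.21-fold for Aspn and 4.88-fold for Fmod.

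In replicate 2, 0 of 8 SLRP genes were lower by more than 1 on that scale (1.48% of all genes) and 2 were higher by more than 1 (2.98% of all genes). The ratio of vehicle to EGCG was 0.978 for Bgn (0.890 to 1.07), 1.08 for Lum (0.850 to 1.36) and 2.37 for Fmod (0.837 to 7.20), whose counting intervals all include 1. That of Dcn was 1.26 (1.12 to 1.42), so Dcn was lower with EGCG in both replicates, by sizes that differed greatly. The genes higher in EGCG 2 were Prelp, with a vehicle to EGCG ratio of 0.301 (0.122 to 0.652), and Aspn, with 0 against 3 counts. The intervals compare single libraries and hold no spread between cultures. The median difference of the 8 genes was −5.12 in replicate 1 and −0.05 in replicate 2, against 0.03 and 0.00 over all genes tested.

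**Figure D4:**
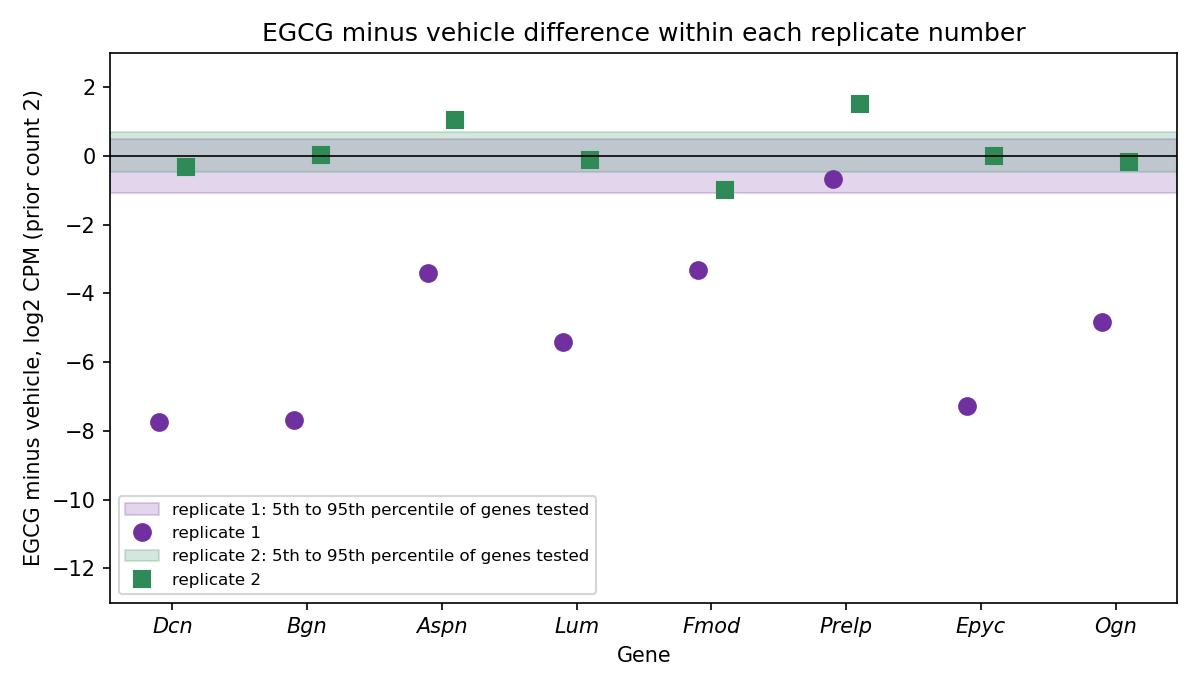
EGCG minus vehicle difference in log2 CPM (prior count 2) for the 8 SLRP genes tested, within replicate 1 (circles) and replicate 2 (squares). Bands span the 5th to 95th percentiles of all genes tested, −1.07 to 0.48 in replicate 1 and −0.47 to 0.70 in replicate 2. All circles but that of Prelp lie below the replicate 1 band.

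The replicates were also compared with each other, with treatment as a second term, since each replicate had its own count table. Of the 8 SLRP genes, 3 had an edgeR adjusted P under 0.1, a smaller share than the 53.5% of all genes tested. Prelp was higher in replicate 2 (edgeR adjusted P = 0.0347), with 8 and 40 counts against 1 and 0. Epyc (edgeR adjusted P = 0.00144) and Ogn (adjusted P = 0.0944) were higher in replicate 1, in both cases through Vehicle 1. Both passed the filter on low counts only through that library, which fixed their direction, and both were at 0 counts in EGCG 1. Their P values therefore do not show a difference between replicates. DESeq2 called Prelp alone. Leaving out 1 library left no residual degrees of freedom for this comparison.

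Genes with a profile over the libraries like that of Bgn, Dcn and Lum were sought across the protein-coding genes. Likeness was the root mean square distance between centred log2 CPM profiles over the 4 libraries, among 11211 protein-coding genes. Dcn and Bgn lay 0.14 apart, and Lum lay 0.85 from each. Nearest to both Bgn and Dcn was Fbln2, a fibulin of elastic matrix, at 0.29 and 0.35, with 1177 counts in Vehicle 1, 2 in EGCG 1, 369 in Vehicle 2 and 630 in EGCG 2. The others nearest to both were Thbs2, a matricellular thrombospondin, Col5a2, a fibrillar collagen chain, Serpinh1, the collagen chaperone, and Lamb1, a laminin chain, at 0.37 to 0.44 from Bgn. Nearest to Lum was Serpinf1, which encodes a secreted serpin, at 0.29 (405, 4, 448 and 719 counts), followed by Lamb1, Ereg, an EGF-family growth factor gene, Cyr61 and Atp2b4, a plasma membrane calcium pump gene, at 0.62 to 0.78. With a prior count of 0.5 in place of 2, 7 of these 15 pairs were found again.

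Most collagen genes, whose products SLRPs bind, were also lower in EGCG 1 than in Vehicle 1. Of 12 collagen genes, 10 were lower with EGCG by more than 1 (log2) in replicate 1, against 5.45% of all genes tested, while Col14a1 had 27 and 26 counts. In replicate 2, 0 collagen genes were lower by more than 1 (1.48% of all genes) and 3 were higher (2.98% of all genes), namely Col6a1, Col6a2 and Col6a3, which encode chains of the beaded-filament collagen. The summed level of the 12 was 548 CPM in Vehicle 1, 25.8 in EGCG 1, 180 in Vehicle 2 and 208 in EGCG 2. Col1a1, the main fibrillar collagen chain, had 3962, 4, 1344 and 2040 counts, and Col3a1, its companion in pliable tissues, 4417, 6, 2189 and 4376. In the fit of all 4 libraries 0 of the 12 had an unadjusted P under 0.05 with edgeR (0.116% of all genes), with a median log2 fold change of −1.57. Of 11 tested genes for proteases that process SLRPs, 1 of them for a protease enhancer (Pcolce), 7 were lower by more than 1 in replicate 1 (5.45% of all genes). In replicate 2, 0 were (1.48% of all genes), and 0 passed the edgeR test on all 4 libraries. Among the 7 was Tll1, with 16, 0, 0 and 0 counts, which passed the filter only through Vehicle 1, so its direction was fixed. Mmp3 was also among them, with 186, 1, 826 and 888 counts. The abundant macrophage proteases did not share the replicate 1 difference: Mmp12 had 14544, 14655, 4427 and 5277 CPM, and Mmp13 had 1610, 1563, 228 and 286 CPM.

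The genes that build the sugar chains were at like summed levels in all 4 libraries. The 23 chondroitin and dermatan sulfate genes summed to between 1132 and 1164 CPM, and the 10 keratan sulfate genes to between 406 and 464 CPM. Of 22 tested in the first list, Csgalnact1, which starts the chondroitin chain, had an unadjusted P under 0.05 in edgeR with an adjusted P of 1.00 (log2 fold change −2.14), on 18, 4, 15 and 5 counts, and was not called by DESeq2 or in any edgeR fit that left out a library. With replicate as a block, edgeR called Csgalnact1 again (unadjusted P = 0.0277), whereas DESeq2 with the block did not. Of 9 tested in the second list, 0 passed, and B4galt1, a galactosyltransferase, had 139, 138, 162 and 160 CPM. Mgat2, the highest of this list per kilobase, had 105, 103, 119 and 113 CPM. Xylt2, which attaches the first sugar, and Chst11, a chondroitin sulfotransferase, differed between replicates more than between treatments, at 89.0, 95.8, 290 and 257 CPM and at 286, 265, 120 and 141 CPM.

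Another SLRP-family gene, Tsku (tsukushi, a secreted inhibitor of BMP and Wnt signals), was expressed in every library, at 28.6, 31.3, 46.6 and 44.2 CPM. Of 8 further family genes 3 were tested and 0 passed. Chadl, the next highest of them per kilobase after Tsku, had 10, 26, 25 and 28 counts. Of 14 genes in the list of receptors of soluble SLRPs, which also holds the inflammasome gene Nlrp3, 0 passed in edgeR on all 4 libraries (0.116% of all genes). Their sum was 3721 to 4398 CPM. Cd14, the Toll-like receptor co-receptor, had 798, 607, 1279 and 1384 CPM, and Itgb1, the β1 integrin, 602 to 640 CPM. Of 16 growth factor and complement genes whose products SLRPs bind, 0 passed in edgeR on all 4 libraries. In replicate 1, 3 of these 16 were lower with EGCG by more than 1 (log2), against 5.45% of all genes tested, and 1 was higher. In replicate 2, 0 of them were lower (1.48%) or higher by that much. C1qa and C1qb, chains of the complement component C1q, were at 1443 and 399 CPM or more in every library.

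Most tested markers of stromal and mural cells were lower in EGCG 1 than in Vehicle 1. Markers of endothelial, oligodendrocyte lineage and neuronal cells summed to like levels in both libraries of replicate 1, though few genes held most of each sum. All 15 microglial markers were detected in every library and summed to between 8841 and 12062 CPM, as the label of the cells implies. The 20 fibroblast and meningeal markers summed to 884 CPM in Vehicle 1, 271 in EGCG 1, 415 in Vehicle 2 and 416 in EGCG 2, with 1, 3, 1 and 1 of them at 0 counts. In replicate 1, 14 of the 19 tested were lower with EGCG by more than 1 (log2), against 5.45% of all genes tested, and in replicate 2, 0 were (1.48%). The difference was not uniform: Lox, a collagen crosslinking enzyme, had 5516, 258, 3079 and 3793 counts, whereas Postn, a matricellular protein gene, had 8301, 8133, 6279 and 9104 and made up 254 CPM of the sum in EGCG 1. Col1a1, Col1a2 and Col3a1 were in both the stromal and the collagen list, so the sums of these lists are not independent. They had 121, 136 and 135 CPM in Vehicle 1, and 0.125, 0.0936 and 0.187 CPM in EGCG 1. Of 8 tested mural markers 6 were lower by more than 1 in replicate 1 (5.45% of all genes tested). The mural list summed to 113, 74.7, 49.5 and 56.1 CPM, so EGCG 1 lay below Vehicle 1 but above replicate 2. Cspg4 alone made up 72.5 CPM of the sum in EGCG 1, and it was in the oligodendrocyte lineage list as well. Astrocyte markers summed to 23.1, 17.1, 14.5 and 15.6 CPM. Of 9 tested astrocyte markers, 4 were lower by more than 1 in replicate 1 (5.45% of all genes tested). In replicate 2, 0 of them were (1.48%). Endothelial markers summed to 275, 283, 96.0 and 106 CPM and oligodendrocyte lineage markers to 189, 188, 152 and 154 CPM. Neuron markers summed to 19.0, 17.7, 1.28 and 1.79 CPM, with Stmn2 the single neuron marker under an unadjusted edgeR P of 0.05 (10, 1, 5 and 1 counts). In replicate 1, 2 of 6 tested endothelial, 0 of 9 oligodendrocyte lineage and 2 of 5 neuron markers were lower by more than 1 (5.45% of all genes tested). Whether these other cells played a part in the SLRP differences was not tested. In bulk RNA, fewer cells of a type and less RNA per cell cannot be told apart.

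**Figure D5:**
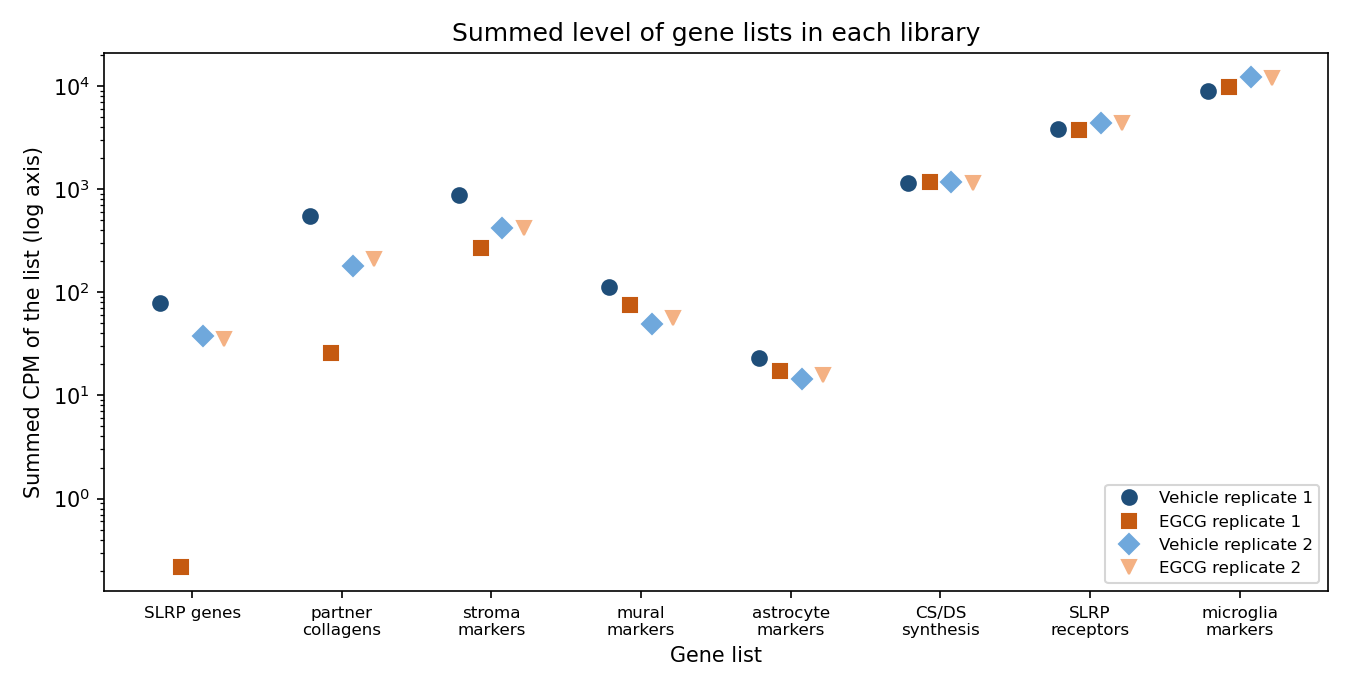
Summed CPM (log axis) of the SLRP genes and of lists of related genes and cell type markers, with 1 point per library. Col1a1, Col1a2 and Col3a1 count in both the collagen and the stromal sums. The SLRP, collagen and stromal sums are lowest in EGCG 1, at 0.218, 25.8 and 271 CPM, while the sums of chondroitin and dermatan sulfate (CS/DS) synthesis genes, SLRP receptors and microglial markers vary little by comparison.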

How the data were processed

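Per the labels and the methods of the study, strand-specific poly(A) libraries were sequenced and the authors aligned reads with HISAT2 to GRCm38.p6. The counting tool is not given in the sources used here. The deposited values were raw counts per gene, in 1 table per replicate; these were joined by gene identifier, and 697 and 329 loci assembled separately in each table were left out. Columns were matched to samples by treatment name and by the study's list of files. The SLRP genes and all gene lists were chosen with earlier results of these data known.

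Protein-coding genes with at least 10 summed counts (13811) were tested with edgeR 4.0.16 in R 4.3.3 (limma 3.58.1; TMM factors, quasi-likelihood F test, treatment only, two-sided, Benjamini-Hochberg adjustment). SE was the fold change divided by the square root of F. Thresholds followed the study (unadjusted P under 0.05, adjusted P under 0.1). Named were all 10 SLRP genes, in each list of related genes the genes under the unadjusted threshold and the 2 highest per kilobase, the 5 nearest profiles to each of the 3 highest SLRP genes, and overlapping genes. Of the cell type marker lists, only some of the genes chosen in this way were named. Col1a2, Col6a1, Col6a2, Col6a3, Col14a1, Mmp3, Tll1, Pcolce, Tnf, Pdgfb, Igf1r and Nlrp3 were named after their values were seen. Alternatives were DESeq2 1.42.0, other scaling, filters, gene classes, dispersion, a replicate block and leaving out each library. Scripts were tested on simulated data. No library was a copy of another. Total counts were 33805071 to 54970300, and with TMM-scaled library sizes 3 counts came to 0.0544 to 0.0936 CPM. Sequences came from RefSeq.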

Additional observations from a re-analysis of the deposited data

How the results depend on the processing

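The count of SLRP genes with an unadjusted P under 0.05, 0 with edgeR on all 4 libraries, was 2 with DESeq2 (Epyc and Ogn) and ranged from 0 to 4 when each library was left out. It stayed at 0 with the other dispersion method, other scaling factors, total counts only, no filter and all gene classes. Over all genes, 16 passed, against 38 with the other dispersion method, 3 with 10 counts in every library, 35 with all gene classes, 24 with DESeq2 and 8 to 131 with a library left out. At an adjusted P under 0.1, 0 genes passed, against 1 with DESeq2. The median log2 fold change of the SLRP genes, −2.09, ranged from −7.65 to −1.09 with a library left out. The Lum value, −0.79, reversed without EGCG 1 and ranged from −9.57 to 0.19. With 10 counts required in every library no SLRP gene was tested, because EGCG 1 had too few. Of 92 alternative SLRP fold changes, 80 kept direction and side of the threshold, 11 passed it and 1 reversed. The values of Epyc, Ogn and Aspn in this tally rest on Vehicle 1, which fixed their direction. Most settings refit the same 4 libraries, so the tally is no measure of robustness. Between replicates, the 3 SLRP calls became 1 with DESeq2. For likeness, 7 of 15 pairs remained with a prior count of 0.5.

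The labels give both groups replicate numbers but do not say that a number marks a shared culture or day. Same-numbered libraries were more alike than others. The mean chi-square per gene between 2 libraries was 12.4 within replicate 1 and 10.3 within replicate 2, against 271 to 289 across replicates. Across 13811 genes the replicate differences of vehicle and EGCG had r = 0.64, with 2 pairs only. With replicate as a block, edgeR gave 444 genes and 2 SLRP genes under an unadjusted P of 0.05, namely Epyc (edgeR adjusted P = 0.583) and Ogn (adjusted P = 0.995), and 1 gene, no SLRP gene, at the adjusted threshold. DESeq2 with the block gave 153 genes and 1 SLRP gene (Ogn), 7 genes at the adjusted threshold, and a median SLRP log2 fold change of −4.15. Of the related lists, edgeR with the block called 2 of 11 tested genes of the protease list lower with EGCG at an unadjusted P under 0.05. These were the protease gene Tll1 and the enhancer gene Pcolce. Tll1 was counted in Vehicle 1 alone, so its direction was fixed by the filter. The same fit called 2 of 16 growth factor and complement genes higher (Tnf and Pdgfb). It called 1 of 14 genes of the receptor list (Igf1r) and 1 of 22 chondroitin sulfate genes (Csgalnact1) lower. Over all 13811 genes it called 293 higher and 151 lower. DESeq2 with the block called 3 of 11 genes of the protease list, against 153 of 13811 genes. It called 1 of 16 growth factor and complement genes, 1 of 14 genes of the receptor list and 1 of 12 collagen genes. A single call in so short a list is no result about the list. Aspn, Ogn and Epyc had at most 3 counts in every EGCG library, so depth limits their fold changes to bounds.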
